A study of Mus musculus with 32 samples.

Results

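Hba-a1, Hba-a2, Hbb-bs, Hbb-bt, Alas2 and Slc4a1 are genes of the red blood cell and of its precursors, measured here by RNA sequencing in laser-captured patches of mouse mammary gland, mammary tumours and lung metastases. The 6 genes were chosen by name, each as 1 row of the count table, and they are 6 of its 24454 NCBI gene IDs. Hba-a1 and Hba-a2 encode the adult alpha chains of haemoglobin, and Hbb-bs and Hbb-bt the adult beta chains of the haplotype carried by C57BL/6 mice. Alas2 encodes the erythroid enzyme of the first step of haem synthesis. Slc4a1 encodes band 3, the anion exchanger of the red cell membrane. Hba-a1 lies at chr11:32283672-32284486 and Hba-a2 at chr11:32296492-32297310, both on the plus strand of GRCm38.p6 (mm10) with 3 exons each. Hbb-bs lies at chr7:103826523-103827928 and Hbb-bt at chr7:103812524-103813923, both on the minus strand with 3 exons each. Alas2 is at chrX:150547417-150570622 on the plus strand with 11 exons, and Slc4a1 at chr11:102348820-102365281 on the minus strand with 20 exons.

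Mature red cells of mammals have no nucleus and make no RNA, but young circulating red cells, the reticulocytes, still carry globin mRNA left from their precursors. The precursors themselves, in marrow and spleen, switch on globin, haem synthesis and membrane genes together under GATA1 and KLF1. Globin mRNA in a solid tissue sample is therefore widely used as a sign of blood.

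All animals were females that carried MMTV-PyMT together with R26-CBW and K8-CreERT2, given 5 mg tamoxifen into the abdomen at 5 weeks of age. In this model the MMTV promoter drives the polyoma middle T oncogene in mammary epithelium, tamoxifen activates Cre in keratin 8 cells, and the R26-CBW reporter then marks each clone with 1 Confetti colour, so normal gland here comes from oncogene-carrying mice too. Patches were cut from 7 µm sections when tumour volume reached its limit, and poly-A RNA was amplified by a Smart-seq2 protocol. Each library is labelled with a single colour, except normal 28 and 30, whose colour is given as a pool. The 32 libraries fall into 3 of normal gland, 5 of hyperplasia, 8 of adenoma, 9 of carcinoma and 7 of lung metastasis. Normal 28 and 30 are pools from several places, and normal 18 was cut in a tumour core. By position, the adenomas divide into 3 from the core, 3 from the border and 2 from outside the tumour, the carcinomas into 6 from the core and 3 from the border, and the metastases into 4 from the lung border and 3 from the lung centre. Libraries are named below by stage and by the number in their label. The series states an n of 3, fewer than the regions of most groups, and its labels do not say which regions came from which animal. Some regions of a group therefore share an animal, which can make a p-value too small. Every p-value below treats regions as independent, so none holds as a statement about mice.

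Totals ran from 2688611 to 19585351 counts per library. A single gene ID that RefSeq gave no symbol held 5.20% to 78.9% of the counts, so levels are given in CPM, counts per 1000000 of a library size scaled by edgeR's TMM method. The fewest genes were detected in hyperplasia 22 (10258), metastasis 42 (10383) and adenoma 51 (10769). The luminal epithelial markers Krt8, Krt18, Epcam and Cdh1 had counts in all 32 libraries, and surfactant and other lung genes summed to between 416 and 4641 CPM in metastases, against at most 62.6 CPM in any other library.

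The coding sequences of the alpha genes are nearly the same, as are those of the beta genes. Hba-a1 and Hba-a2 have 426 coding bases each and differ at 1 of them, and Hbb-bs and Hbb-bt have 441 each and also differ at 1. The stretches of 60 coding bases around that position (bases 351 to 410 of the alpha genes and 382 to 441 of the beta genes, from GENCODE vM21, build GRCm38) are shown 5′ to 3′ with the differing base in capitals.
Hba-a1: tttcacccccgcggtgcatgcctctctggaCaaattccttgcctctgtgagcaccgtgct
Hba-a2: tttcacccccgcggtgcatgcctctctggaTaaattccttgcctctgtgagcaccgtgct
Hbb-bs: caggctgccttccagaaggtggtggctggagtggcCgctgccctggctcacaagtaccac
Hbb-bt: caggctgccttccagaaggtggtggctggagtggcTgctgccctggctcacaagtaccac
Of the 50-base windows of the coding sequence, 87.8% are the same in Hba-a1 and Hba-a2, and 93.6% in Hbb-bs and Hbb-bt. Over whole transcripts the shares are lower for the beta genes, with 65.8% of the windows of Hbb-bs also in Hbb-bt and 58.3% of those of Hbb-bt in Hbb-bs. For the alpha genes, 67.5% of the windows of Hba-a1 are in Hba-a2 and 86.9% of those of Hba-a2 in Hba-a1.

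The promoters of the globin genes share short motifs that Alas2 lacks. The 120 bases before each start (RefSeq, GRCm38.p6) are shown 5′ to 3′ on the gene's own strand, with 4 motifs in capitals on either strand. These are CACCC (in reverse GGGTG), then CCAAT (in reverse ATTGG), then ATATAA (in reverse TTATAT), and last GATAA (in reverse TTATC). A reverse CCAAT that runs into a forward one is counted as 2 matches. They are chr11:32283552-32283671 for Hba-a1, chr7:103827929-103828048 for Hbb-bs, chr7:103813924-103814043 for Hbb-bt and chrX:150547297-150547416 for Alas2.
Hba-a1: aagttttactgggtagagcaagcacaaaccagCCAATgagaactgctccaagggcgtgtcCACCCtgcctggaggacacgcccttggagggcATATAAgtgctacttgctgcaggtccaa
Hbb-bs: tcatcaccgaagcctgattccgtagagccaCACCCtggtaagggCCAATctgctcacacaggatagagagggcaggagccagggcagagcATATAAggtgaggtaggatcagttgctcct
Hbb-bt: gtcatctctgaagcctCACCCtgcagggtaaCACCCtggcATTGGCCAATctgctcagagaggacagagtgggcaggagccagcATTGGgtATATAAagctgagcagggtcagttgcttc
Alas2: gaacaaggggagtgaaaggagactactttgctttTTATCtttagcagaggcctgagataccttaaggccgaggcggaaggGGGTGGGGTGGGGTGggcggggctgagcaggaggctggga
CACCC is the core of the element bound by KLF1, CCAAT that of the CCAAT box, ATATAA a form of the TATA box and GATAA a form of the GATA1 site. All 3 globin windows hold CACCC, together with CCAAT as well as ATATAA. The Alas2 window holds CACCC 3 times and GATAA 1 time, both on the reverse strand, and neither CCAAT nor ATATAA. Among 27025 mouse promoter windows of the same length, CACCC is in 31.3%, CCAAT in 22.1%, GATAA in 10.7% and ATATAA in 4.68%. The windows of Hba-a1 and Hba-a2 are identical over 297 bases once shifted by 3, so only Hba-a1 is shown. No promoter entry was used for Slc4a1.

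The alpha globin rows held almost the same numbers. Hba-a1 and Hba-a2 had equal counts in 17 of 32 libraries, and in the other 15 Hba-a1 was higher. The largest gap was 179 reads, in metastasis 56, where Hba-a1 had 31679 counts and Hba-a2 31500. The largest relative gap was 3.05%. No source used here says how the counting treated reads that match both genes, so the level of either alpha gene alone is uncertain and Hba-a1 stands below for both.

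The beta rows held nearly the same counts as rows that are not among the 6 genes. Hbb-b1 and Hbb-b2 are the adult beta genes of another haplotype, found in other strains. Hbb-bs equalled Hbb-b1 in 31 of 32 libraries, with 28779 against 28799 counts in the exception, metastasis 56. Hbb-bt equalled Hbb-b2 in 32 of 32. Hbb-bs and Hbb-bt, by contrast, differed in 29 of 32 libraries. In the 21 libraries with at least 100 beta reads, Hbb-bt made up 16.4% to 37.9% of Hbb-bs plus Hbb-bt, with a median of 27.4% and a mean of 26.9% ± 4.86 (SD, n = 21). The lowest share, 16.4% in carcinoma 06, has a 95% Wilson interval of 11.1% to 23.6%, and the highest, 37.9% in carcinoma 54, one of 35.4% to 40.3%. These intervals cover counting error only, since PCR reads without molecular identifiers are not independent molecules. In the 7 metastases the share lay between 25.5% and 31.3%. How the counting treated reads that match both Hbb-bs and Hbb-bt is not known either. Such reads may sit in either row or in both. This share, and the ratios and sums below that use both rows, are therefore uncertain too.

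**Figure D1:**
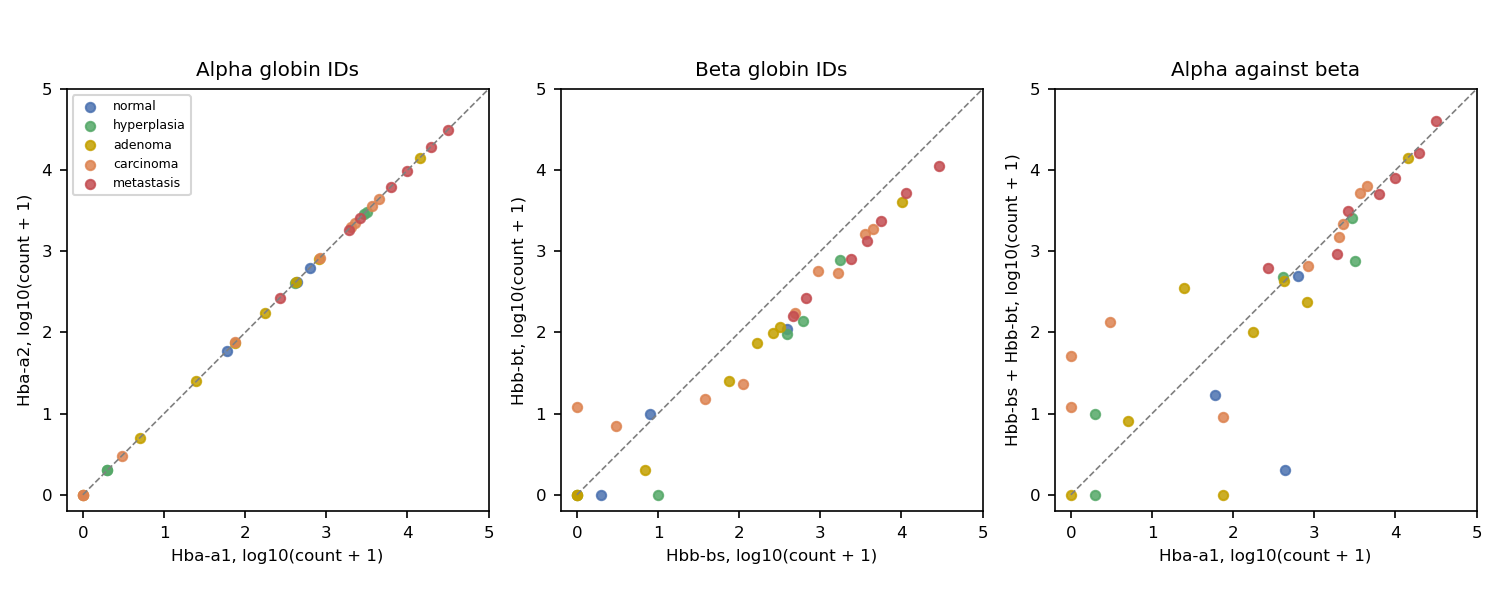
Counts per library as log10(count + 1), with Hba-a2 against Hba-a1, Hbb-bt against Hbb-bs, and Hbb-bs plus Hbb-bt against Hba-a1; each point is a library coloured by stage and the dashed line marks equality. The alpha genes lie on or near the line, with equal counts in 17 libraries and a largest relative gap of 3.05%, Hbb-bt lies below Hbb-bs in 26, and a few libraries sit far from the line between alpha and beta, such as normal 18 with 431 alpha and 1 beta counts.

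Alpha and beta globin counts were close to each other in most libraries with at least 100 reads of each, and furthest apart in several with little globin. In the 19 libraries with at least 100 reads of both, the ratio of Hba-a1 to Hbb-bs plus Hbb-bt ran from 0.426 to 4.20, with a median of 1.13. The 7 metastases lay between 0.426 and 2.02. Alpha was well above beta in hyperplasia 22, with 3153 and 750 counts, and in adenoma 47, with 812 and 239. Normal 18 had 431 alpha counts and 1 beta count. Adenoma 50 had 73 alpha counts and 0 beta counts, a level of beta globin under the 0.339 CPM that 3 counts amount to there. Adenoma 25 went the other way, with 24 alpha and 354 beta counts, and so did carcinoma 06, with 2 alpha and 134 beta counts. Carcinoma 38 and carcinoma 53 had 0 alpha counts, with 51 and 11 beta counts.

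Per kilobase of coding sequence and averaged over the 32 libraries, Hba-a1 stood at 1043 CPM, Hbb-bs at 739, Hbb-bt at 296, Alas2 at 2.03 and Slc4a1 at 0.0897. Hba-a1 had counts in 29 libraries, Hbb-bs in 28, Hbb-bt in 27, Alas2 in 19 and Slc4a1 in 6. The filter on low counts kept 5 of the 6 genes in the comparison of stages, where Slc4a1 failed, and 6 of 6 in the comparison of positions. Alas2 rests on 1023 reads in all and Slc4a1 on 87, against 108480 for Hba-a1.

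Globin was spread widely within every stage and was highest, on average, in metastases. The sum of Hba-a1, Hbb-bs and Hbb-bt, which leaves out the second alpha row and both copies of the beta rows, was 37.3, 19.9 and 229 CPM in normal 18, 28 and 30. In hyperplasia it was 0.0889 in library 21, 1.22 in 44, 444 in 22, 1140 in 33 and 72.8 in 46. Adenomas ran from 0 to 2989 CPM with a median of 23.7, carcinomas from 2.55 to 856 with a median of 96.5, and metastases from 81.4 to 13090 with a median of 763. Metastases and the other stages overlapped: 11 of the 25 libraries from the mammary gland exceeded the lowest metastasis, and 3 exceeded the median metastasis. A sum over 100 CPM was reached in 1 of 3 normal, 2 of 5 hyperplasia, 2 of 8 adenoma, 4 of 9 carcinoma and 6 of 7 metastasis libraries.

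The highest sums were in metastasis 56 with 13090 CPM, metastasis 40 with 3557, adenoma 36 with 2989, metastasis 27 with 2670 and hyperplasia 33 with 1140. As a share of all counts, with no scaling of libraries, globin was 1.21% in metastasis 56 (95% Wilson interval 1.20% to 1.22%), 0.112% in metastasis 40, 0.200% in adenoma 36 and 0.364% in metastasis 27. Metastasis 40 ranks second in scaled CPM and below adenoma 36 and metastasis 27 as a share of counts, and it is the library where 78.9% of counts fell on a single gene ID. Adenoma 51 had 0 of 8255402 counts on these globins, which allows a level of up to 0.856 CPM, and it is 1 of the 3 libraries with the fewest detected genes. In bulk regions, fewer red cells and less globin RNA per red cell cannot be told apart.

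**Figure D2:**
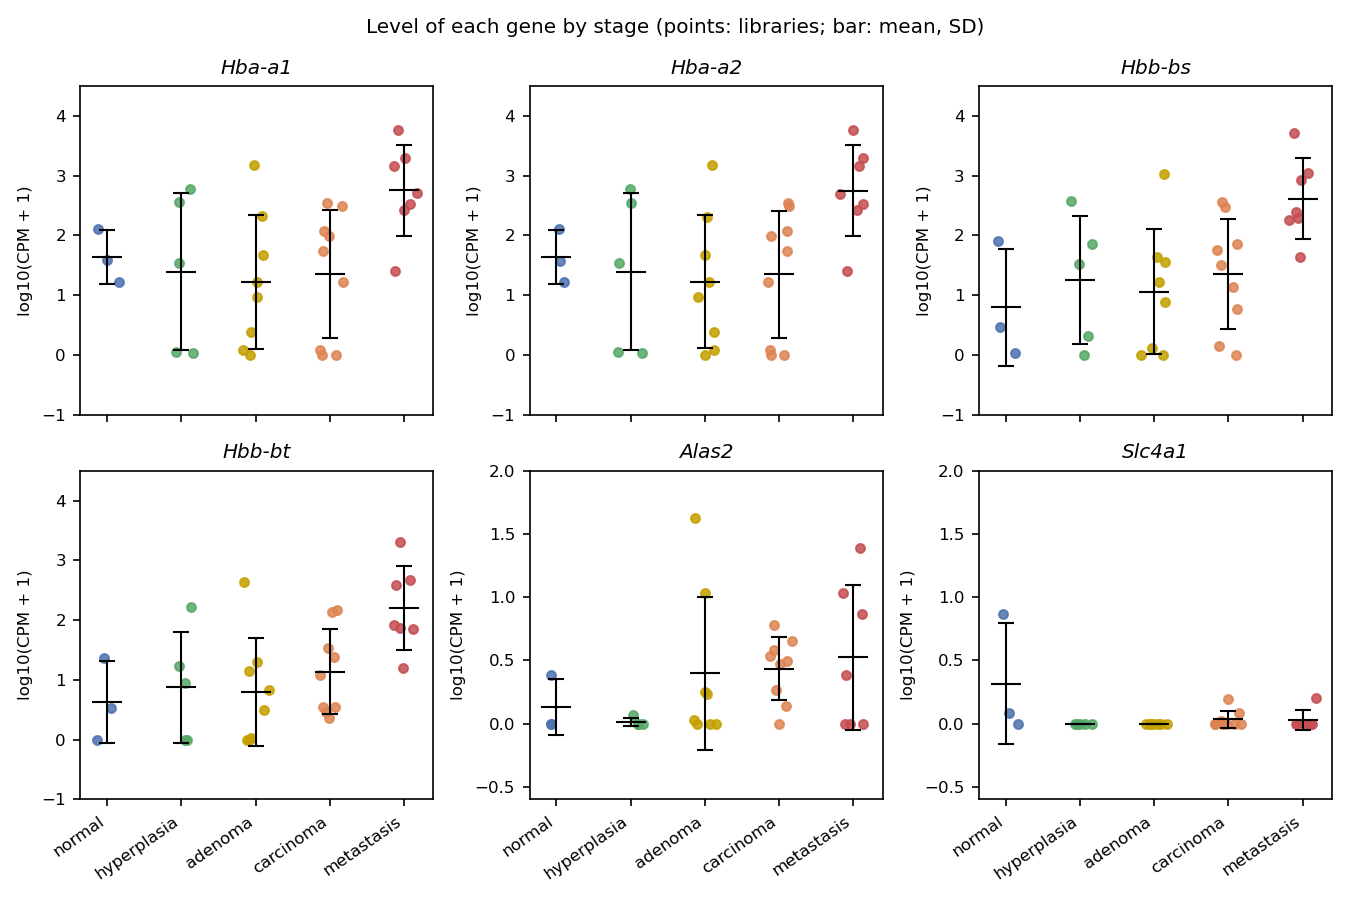
Level of each of the 6 genes by stage as log10(CPM + 1), with a point for each library and bars for the mean and SD on that scale. Globin points of the 7 metastases sit in the upper part of each panel but overlap all other stages, and Slc4a1 is at 0 in 26 of 32 libraries.

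The mean level of Hba-a1 was 60.2 ± 59.5 CPM over the 3 normal libraries, 200 ± 273 over the 5 hyperplasias, 222 ± 520 over the 8 adenomas, 105 ± 135 over the 9 carcinomas and 1475 ± 2024 over the 7 metastases (SD). The SD was near or above the mean in every stage. In order of their means the stages ran metastasis, adenoma, hyperplasia, carcinoma and normal gland, and none of these neighbours differed beyond its spread. Single libraries carried the means: adenoma 36 held 84.3% of the adenoma sum, hyperplasia 33 held 60.7% of the hyperplasia sum and metastasis 56 held 56.01% of the metastasis sum. Without adenoma 36 the adenoma mean was 39.8 ± 75.2 CPM (n = 7), below those of hyperplasia and carcinoma, and without metastasis 56 the metastasis mean was 757 ± 769 (n = 6), still the highest.

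For Hbb-bs the mean was 26.9 ± 44.8 CPM over normal libraries, 94.6 ± 157 over hyperplasias, 146 ± 372 over adenomas, 92.5 ± 137 over carcinomas and 1126 ± 1863 over metastases. Hbb-bt averaged 8.26 ± 12.3, 37.5 ± 70.9, 58.2 ± 149, 40.1 ± 59.1 and 449 ± 729 CPM for these stages in the same order. Both had their stage maxima in the libraries that were highest for Hba-a1: normal 30, hyperplasia 33, adenoma 36, carcinoma 37 and metastasis 56. Across the 32 libraries the log2 levels of Hba-a1 and Hbb-bs had a Spearman rho of 0.921 and a Pearson r of 0.891, and r was 0.867 without adenoma 51 and metastasis 56. These points share their library, its depth and its scaling, so the values describe the data only.

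Alas2 was low and did not track globin closely. It was 0, 0 and 1.44 CPM in normal 18, 28 and 30. In hyperplasia only library 21 had counts, 2 of them or 0.178 CPM, while hyperplasia 22 and 33, with the 2 highest globin sums of that stage, had none. Adenomas ran from 0 to 41.3 CPM with a median of 0.392, carcinomas from 0 to 4.97 with a median of 2.14, and metastases from 0 to 23.5 with a median of 1.42. The highest levels were in adenoma 36 and metastasis 56, which were also high in globin, and 9.84 CPM was found in adenoma 50, where alpha globin was 8.26 CPM and beta globin 0. Metastasis 02, 42 and 57 had no Alas2 count beside globin sums of 598, 763 and 81.4 CPM. Carcinoma had Alas2 counts in 8 of 9 libraries, a larger part than in any other stage. The Spearman rho of Alas2 over 32 libraries was 0.314 with Hba-a1, 0.364 with Hbb-bs and 0.429 with Hbb-bt. With Hba-a1 the Pearson r of log2 levels was 0.482, and 0.376 without adenoma 51 and metastasis 56. Alas2 was at 0 in 13 of the 32.

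Slc4a1 had few reads or none in the libraries with the most globin. Of its 87 reads, 74 were in normal 18, at 6.38 CPM, a library with 37.3 CPM of globin and no Alas2. Normal 30 had 0.205 CPM, carcinoma 37, 39 and 08 had 0.554, 0.212 and 0.0434, and metastasis 40 had 0.601. The 5 hyperplasias, the 8 adenomas and metastasis 56 had 0 counts. In metastasis 56 a count of 0 allows up to 0.548 CPM, against 23.5 CPM of Alas2 and 13090 of globin.

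Lung metastasis was set against carcinoma of the mammary gland to ask whether regions in the lung hold more erythroid RNA than primary carcinoma. All 3 globins were higher in metastases by more than 10-fold in the fit, and none passed the threshold. Hba-a1 was 331, 1964, 5781, 24.3, 510, 265 and 1446 CPM in metastasis 02, 40, 56, 57, 42, 58 and 27, against 0 to 354 CPM with a median of 53.7 in carcinomas. The groups overlapped, since metastasis 57 lay below the carcinoma median. The log2 difference was 3.81 ± 1.37 (SE), with an adjusted p of 0.254 by edgeR's quasi-likelihood test with Benjamini-Hochberg adjustment over 19907 genes. Hbb-bs differed by 3.60 ± 1.38 with an adjusted p of 0.278, and Hbb-bt by 3.48 ± 1.34 with an adjusted p of 0.281. Alas2 differed by 1.47 ± 1.67 with an adjusted p of 0.867. Of the 5 genes tested, 0 passed at an adjusted p of 0.05, where 0.0151% of all genes did, and DESeq2 and limma voom passed 0 as well. At an unadjusted p of 0.05, 4 of the 5 were higher, where 5.21% of all genes were, and these 4 are the alpha rows, with almost the same counts, and the beta rows. Without metastasis 56, the log2 difference was 2.94 for Hba-a1 and 2.33 for Hbb-bs.

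Summed markers of lung tissue and of neutrophils were also higher in metastases than in carcinomas. Among the 9 lung genes, Sftpc, Sftpb and Sftpa1 passed the same test as higher in metastases, and they are the 3 genes that make up the 0.0151% called. Summed lung genes were 3918 CPM in metastasis 56 and 2085 in metastasis 40, but 4641 in metastasis 02, whose globin sum was 598 CPM. Neutrophil genes summed to between 138 and 1024 CPM in metastases, against 2.45 to 54.8 in carcinomas, with between 1 and 6 of the 10 genes at 0 in metastases and between 4 and 8 in carcinomas. Endothelial genes summed to between 64.6 and 339 CPM in metastases, against 32.4 to 89.5 in carcinomas, and the lowest of the metastases was 56. Platelet genes summed to between 3.64 and 55.3 CPM in metastases, against 8.70 to 99.0 in carcinomas. Of the 12 endothelial, 9 neutrophil and 7 platelet genes tested, none passed edgeR's adjusted threshold in metastasis minus carcinoma. At an unadjusted p of 0.05, 1, 7 and 0 of them did, where 10.9% of all genes did in either direction. In edgeR's F test over the 5 stages, 4 of the 9 neutrophil genes passed, with a lowest adjusted p of 0.00505. None of the endothelial or platelet genes did, where 3.58% of all genes passed. The part of lung tissue, vessels or white cells in the globin difference was not tested, and the lung site cannot be told apart from the stage.

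**Figure D3:**
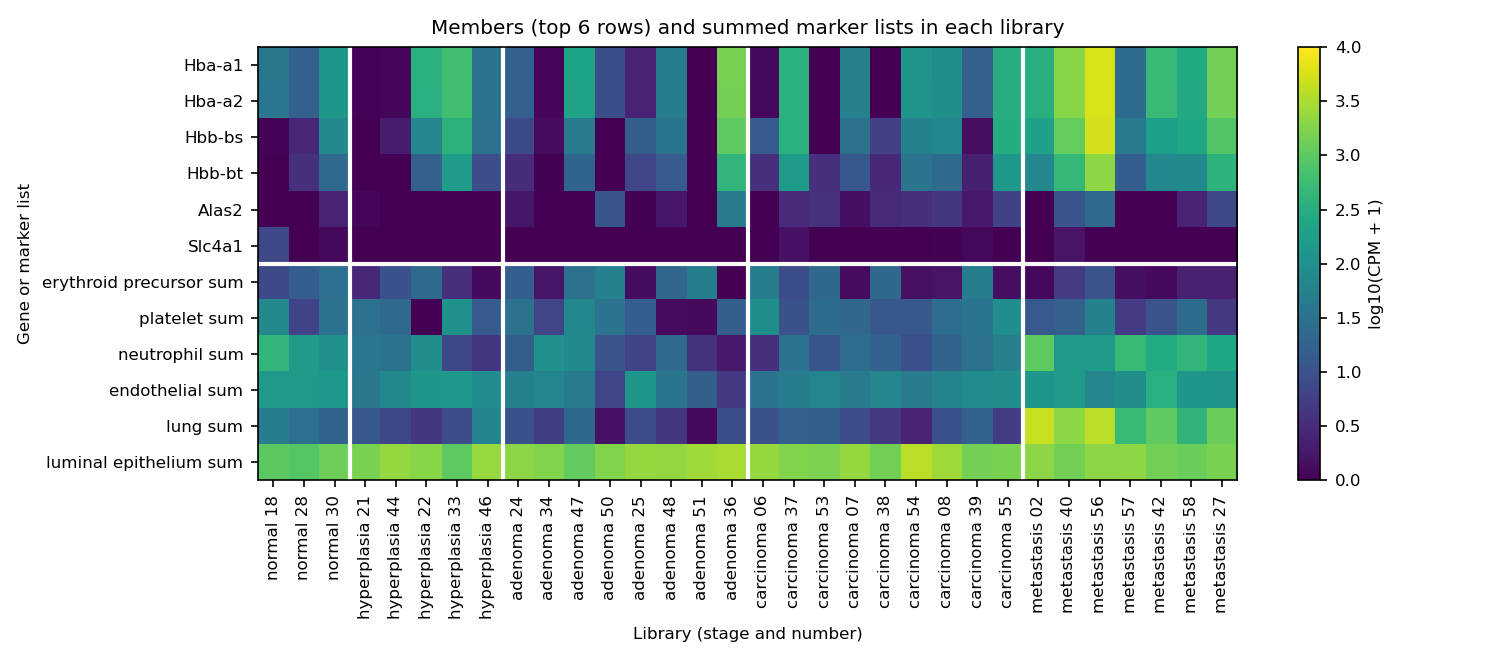
Level of the 6 genes and summed level of 6 marker lists in each of the 32 libraries as log10(CPM + 1), with white lines between stages. The 4 globin rows are bright together in metastasis 56, metastasis 40, adenoma 36 and metastasis 27, while the lung row is bright in all 7 metastases and the endothelial row is at its darkest in adenoma 36.

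In the other comparisons between stages, edgeR called none of the 5 genes tested. Hyperplasia differed from normal gland by a log2 of 1.73 ± 1.995 for Hba-a1 and 1.82 ± 2.04 for Hbb-bs, with a lowest adjusted p of 0.600 over the 5 genes tested. Adenoma differed from hyperplasia by 0.15 ± 1.46 for Hba-a1 and 0.62 ± 1.497 for Hbb-bs. Carcinoma differed from adenoma by −1.08 ± 1.24 for Hba-a1 and −0.65 ± 1.25 for Hbb-bs, with a lowest adjusted p of 0.801. Without adenoma 36 these became 1.24 and 2.61, and limma voom gave 2.38 and 3.07, so the sign of this comparison turns. The Hbb-bs difference between hyperplasia and normal gland was −0.31 without hyperplasia 33 and 6.78 without normal 30. For adenoma minus hyperplasia, Hba-a1 was −2.26 and Hbb-bs −2.75 without adenoma 36. Carcinoma differed from normal gland by 0.81 ± 1.78 for Hba-a1 and 1.79 ± 1.93 for Hbb-bs, with a lowest adjusted p of 0.794. In these 4 comparisons 0 genes passed at an adjusted p of 0.05, where 0%, 0%, 0% and 0.00502% of all genes did. At an unadjusted p of 0.05 Alas2 alone did so, in adenoma minus hyperplasia, where 7.4% of all genes were higher. In the other 3 comparisons none of the 5 did, where 12.4% of all genes in hyperplasia minus normal gland, 12.6% in carcinoma minus adenoma and 8.17% in carcinoma minus normal gland did so in either direction. Each standard error exceeds 1 on the log2 scale, so changes of several fold were not detectable here.

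Alas2 was the gene with the largest fitted difference between adenoma and hyperplasia among the 5 tested. It had 493 reads over the 8 adenomas and 2 over the 5 hyperplasias, a ratio per scaled library size of 134 with a 95% exact counting interval of 36.8 to 1108 that pools reads over libraries and covers counting error only. Of the adenoma reads, 79.1% were in adenoma 36, and 3 of the 8 adenomas had none, so the groups overlapped. The fitted log2 difference was 7.03 ± 2.65, with an adjusted p of 0.209 by edgeR. DESeq2 gave an adjusted p of 0.0302, where it passed 3.06% of all genes, and without adenoma 36 edgeR gave a log2 difference of 5.05.

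Over all 5 stages at once, 0 of the 5 genes passed edgeR's F test, where 3.58% of all genes did. The adjusted p was 0.101 for Hbb-bt, 0.115 for Hbb-bs, 0.148 for Hba-a1 and 0.300 for Alas2. At an unadjusted p of 0.05, 4 of 5 passed, where 20.9% of all genes did. Without adenoma 36, the count at an adjusted p of 0.05 became 2, with a lowest adjusted p of 0.0277, where 2.96% of all genes passed. Without normal 30 it became 1, with a lowest adjusted p of 0.0496, where 6.27% of all genes passed. Without the filter on low counts Hbb-bs, Hbb-bt and Slc4a1 passed, with adjusted p-values of 0.0462, 0.0403 and 0.0217 by edgeR, where 15.5% of all genes did.

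**Figure D4:**
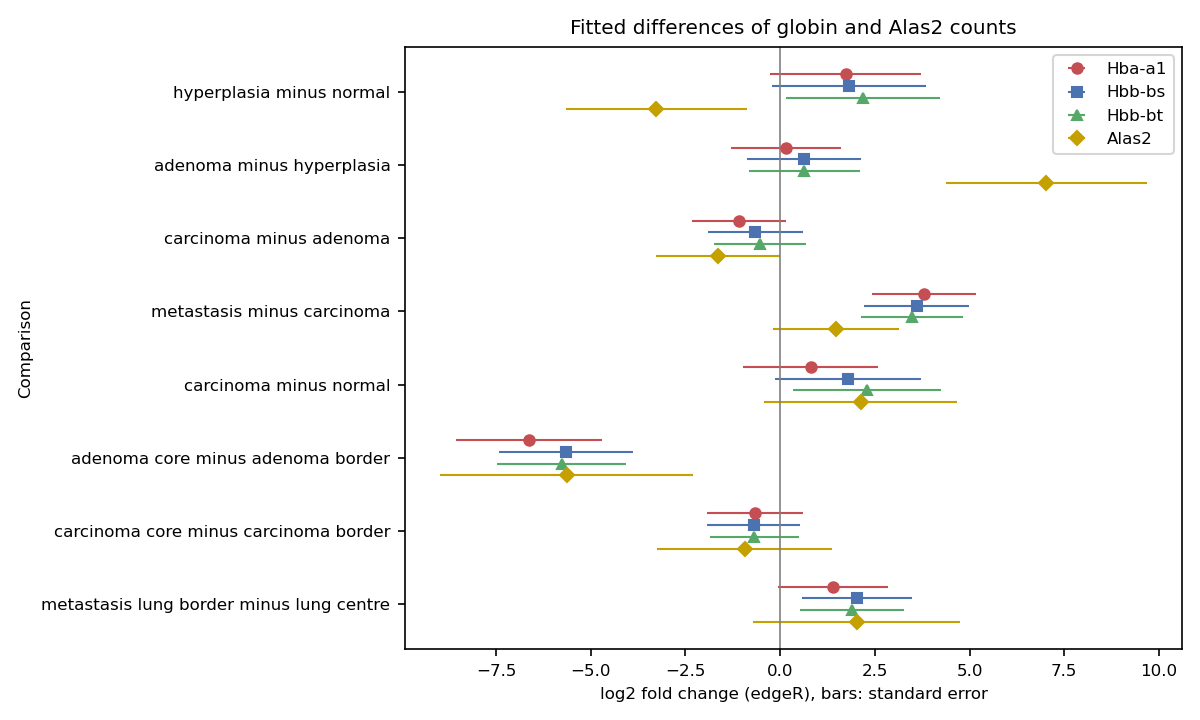
Fitted log2 differences of Hba-a1, Hbb-bs, Hbb-bt and Alas2 in the 8 comparisons, with bars for the standard error. The globins lie close to each other in each comparison, at 3.48 to 3.81 for metastasis minus carcinoma and at −6.64 to −5.65 for adenoma core minus border, and none passed an adjusted p of 0.05 in edgeR.

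Within adenomas, regions of the tumour core held less globin than regions of the border in every pair of libraries, and the difference did not pass the adjusted threshold in edgeR. Hba-a1 was 15.8, 1.44 and 0 CPM in core adenomas 24, 25 and 51, against 206, 46.4 and 1497 CPM in border adenomas 47, 48 and 36. Hbb-bs was 6.80, 15.4 and 0 CPM in the core, against 41.9, 34.8 and 1065 CPM at the border. The 4 globin rows did not overlap between core and border, all lower in the core, as was so for 2.35% of all 22676 genes tested. The log2 difference of Hba-a1 was −6.64 ± 1.92, with an adjusted p of 0.492 by edgeR. That of Hbb-bs was −5.65 ± 1.78 with an adjusted p of 0.514, that of Hbb-bt −5.77 ± 1.71 with an adjusted p of 0.492, and that of Alas2 −5.63 ± 3.34 with an adjusted p of 0.534. Of the 6 genes, 0 passed, where 0% of all genes did, and 4 were lower at an unadjusted p of 0.05, where 4.63% of all genes were. DESeq2 passed 3 of the rows, Hba-a1 at an adjusted p of 0.0407, Hba-a2 at 0.0413 and Hbb-bt at 0.0499, where it passed 5% of all genes. Without adenoma 36, the edgeR difference was −4.51 for Hba-a1, −2.42 for Hbb-bs and −0.54 for Alas2. Core adenoma 51 is the library without a globin count and 1 of the 3 with the fewest detected genes.

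Adenoma 36 had the lowest endothelial, neutrophil and erythroid precursor sums of the 8 adenomas, but other adenomas came near it in each. Its endothelial genes summed to 3.81 CPM, the lowest of the 8 adenomas, its neutrophil genes to 0.847 and its erythroid precursor genes to 0, beside 2989 CPM of globin. The other border adenomas, 47 and 48, had endothelial sums of 42.7 and 35.5 CPM, and core adenomas 24, 25 and 51 had 55.9, 130 and 15.4. Adenomas 34 and 50, from outside the tumour, had 68.3 and 5.88. Neutrophil genes summed to 2.85 CPM in adenoma 51, and erythroid precursor genes to 0.361 in adenoma 25. The 2 adenoma regions from outside the tumour, 34 and 50, had 0.193 and 8.26 CPM of Hba-a1, both below every border adenoma.

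Carcinomas did not show a difference of this size between positions. Hba-a1 ran from 0 to 354 CPM in the 6 core carcinomas, against 98.3, 15.9 and 306 CPM in border carcinomas 08, 39 and 55, and the groups overlapped. Its log2 difference was −0.67 ± 1.27 and that of Hbb-bs −0.70 ± 1.23, with adjusted p-values of 1 by edgeR for each of the 6 genes, where 0% of all genes passed, and none passed at an unadjusted p of 0.05, where 5.63% of all genes did. DESeq2 and limma voom passed none of the 6 genes either. Over the alternatives other than leaving out 1 library, the difference ran from −3.37 to −0.63 for Hba-a1. For Hbb-bs it ran from −1.40 to −0.63. Without carcinoma 37 the difference was −2.03 for Hba-a1 and −2.58 for Hbb-bs, and without carcinoma 55 it was 0.62 and 1.07, so its sign turns on 1 library. The test of the difference between adenoma and carcinoma in this core minus border contrast gave −5.97 for Hba-a1, with an adjusted p of 0.511 by edgeR, and 0 genes of the whole table passed it.

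Metastases at the lung border had 1964, 5781, 24.3 and 265 CPM of Hba-a1 in libraries 40, 56, 57 and 58, against 331, 510 and 1446 CPM in the lung centre, in libraries 02, 42 and 27. The lung border thus held both the highest and the lowest metastasis. The log2 difference of Hba-a1 was 1.39 ± 1.46 with an adjusted p of 0.790, and that of Hbb-bs 2.03 ± 1.45 with an adjusted p of 0.652, by edgeR, where 0% of all genes passed. At an unadjusted p of 0.05 none of the 6 genes passed, where 8.71% of all genes did, and DESeq2 and limma voom passed none at the adjusted threshold. Without metastasis 56 the difference was −0.029 for Hba-a1 and 0.20 for Hbb-bs.

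**Figure D5:**
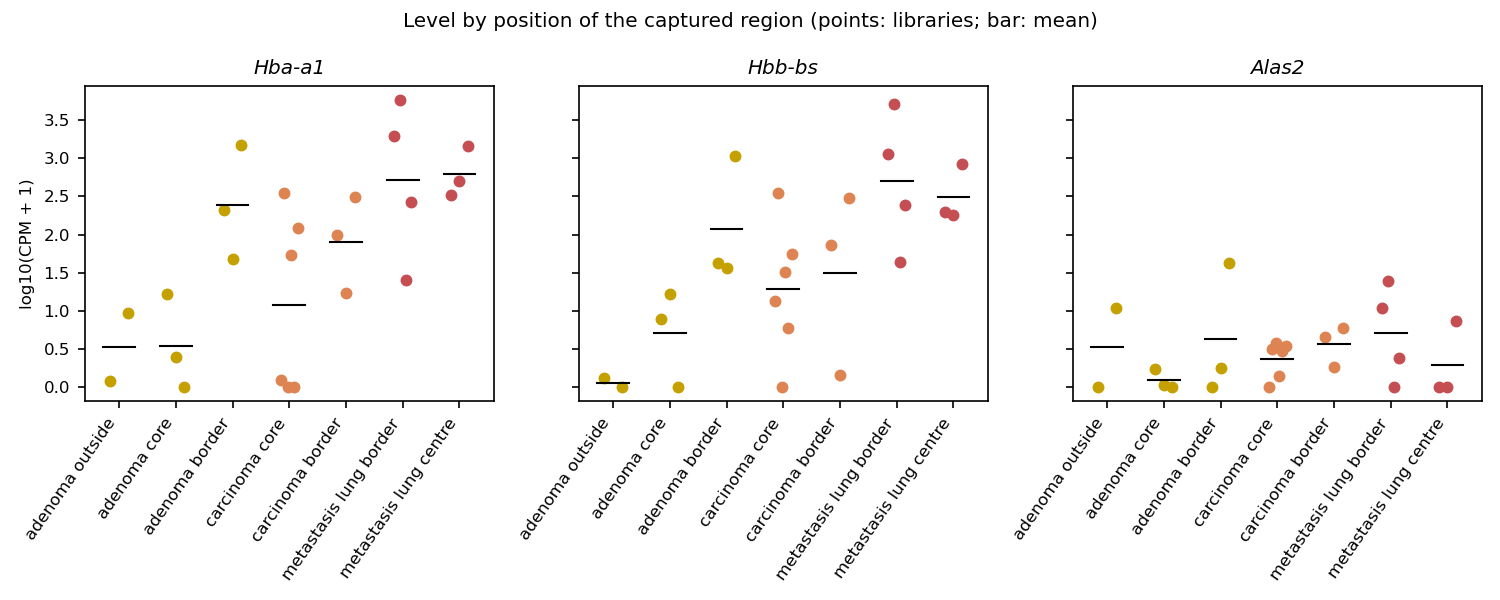
Level of Hba-a1, Hbb-bs and Alas2 by position within adenoma, carcinoma and metastasis as log10(CPM + 1), with a point for each library and a bar for the mean on that scale. The 3 core adenomas lie below the 3 border adenomas for both globins, while core and border carcinomas, and lung border and lung centre metastases, overlap.

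Most genes of nucleated erythroid precursors were detected in few libraries, and one in most. Gata1, the master regulator of the lineage, had counts in 4 of 32 libraries, the globin activator Klf1 in 8, the erythropoietin receptor Epor in 4, hemogen (Hemgn) in 8, Ermap in 16 and Rhag, a red cell membrane protein of the Rh complex, in 29. The maxima were 21.1 CPM of Gata1 in carcinoma 53, 14.3 of Klf1 in normal 28, 6.01 of Epor in carcinoma 37, 41.9 of Hemgn in carcinoma 39, 47.4 of Ermap in adenoma 51 and 30.1 of Rhag in carcinoma 06. Carcinoma 37 had the highest globin sum of the carcinomas, and adenoma 51 had none. The 7 precursor genes found summed to between 0.212 and 9.49 CPM in metastases, against 0.323 to 47.3 in carcinomas, and to 0 in adenoma 36. Of the 10 regulators found, 7 were tested across stages, and 1 passed edgeR's F test over 5 stages, where 3.58% of all genes did. That gene was Trim58, an erythroid ubiquitin ligase, with an adjusted p of 0.0381, counts in 5 libraries and its maximum of 60.2 CPM in adenoma 51. Tfrc, the transferrin receptor, averaged 123 CPM and Bcl11a 30.8 over the 32 libraries.

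Globins of the embryo and of other tissues had lower medians than the adult globin sum in every stage but normal gland. Leaving out Hbb-b1 and Hbb-b2, the 9 other globin genes summed to medians of 47.01, 27.6, 6.50, 38.4 and 14.4 CPM in normal gland, hyperplasia, adenoma, carcinoma and metastasis. The adult sum of Hba-a1, Hbb-bs and Hbb-bt had medians of 37.3, 72.8, 23.7, 96.5 and 763 CPM in the same order. Mb, the myoglobin of muscle, was the most abundant with a mean of 15.9 CPM and counts in 30 libraries. Hbb-bh1, an embryonic beta-like globin, reached 97.9 CPM in normal 28, above the adult globin sum of 19.9 CPM there. Hbq1a, a theta globin, reached 193.7 CPM in metastasis 42. Hbq1a was the 1 gene of the list that passed edgeR's F test over stages, with an adjusted p of 0.0460, on counts in 4 libraries, where 3.58% of all genes passed.

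Of 15 red cell membrane genes, 10 haem synthesis genes other than Alas2 and 6 red cell enzymes, all tested, 0 passed edgeR's adjusted threshold in any of the 8 comparisons or over the 5 stages. At an unadjusted p of 0.05 in metastasis minus carcinoma, none of the membrane or haem genes and 1 of the enzymes passed, and over the 5 stages 3 membrane genes, 1 haem gene and 1 enzyme did, where 10.9% of all genes passed in metastasis minus carcinoma and 20.9% over the stages. In metastasis minus carcinoma the median log2 difference was −0.56 for membrane genes, −0.12 for haem genes and 0.017 for enzymes, beside −0.011 for all genes tested. Most have roles in many tissues. Among membrane genes the most abundant were Tmod1, a tropomodulin that caps actin, with a mean of 39.01 CPM, Epb41 (protein 4.1R) with 33.3 and Sptb (beta spectrin) with 14.1. Among haem genes they were Slc25a37 (mitoferrin 1) with 71.8 CPM, the enzymes Alad with 62.0 and Cpox with 44.4, and ferrochelatase (Fech) with 36.8. Among enzymes Prdx2, a peroxiredoxin abundant in red cells, averaged 403 CPM, catalase (Cat) 93.4, Blvrb 39.1 and carbonic anhydrase 2 (Car2) 35.2. Car1, carbonic anhydrase 1 of the red cell, was at 0 in 23 of 32 libraries, among them all 7 metastases. Its mean was 6.70, 2.88, 8.38, 0.284 and 0 CPM in normal gland, hyperplasia, adenoma, carcinoma and metastasis. Car2 instead averaged 34.5 CPM in carcinomas and 49.2 in metastases.

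The genes most like globin in their pattern, by Spearman rho with the summed CPM of the 4 globin rows over 32 libraries among 12204 genes of at least 5 CPM on average and 10 counts in 8 libraries, were Hbb-b1 at 0.949 and Hbb-b2 at 0.943, which hold nearly the same counts as Hbb-bs and Hbb-bt. After them came Zkscan6 at 0.663, a zinc finger gene, Inpp5k at 0.602, an inositol phosphatase, and Egr1 at 0.592, an immediate early transcription factor. Muc1, an epithelial mucin, followed at 0.575, then the histone genes H2bc23 and H4bc24 at 0.560, Sirt7 at 0.558 and Tmem29 at 0.546. H2bc23 and H4bc24 had the same mean CPM in every stage. The drop from 0.943 to 0.663 separates these copies from all others, and the libraries share their depth and scaling.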

How the data were processed

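RNA from 32 laser-captured regions was analysed from the whole-number counts of reads per NCBI gene ID that the authors deposited as 1 table for the series. Reads were aligned with STAR to mm10, per the submitters' processing notes. The deposited counts carry QuasR in their name, which points to that counting package. No source used here gives its annotation, its strand setting or how it handled reads that align to several places. Symbols came from RefSeq and matched 24374 of 24454 IDs. The genes and lists were chosen with earlier results of these data known.

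Genes with low counts were removed with filterByExpr, which left 19907 genes for stages and 22676 for positions. Libraries were scaled by TMM and all 32 were fitted together with edgeR 4.0.16 (quasi-likelihood test, two-sided, adjusted over all genes kept, threshold 0.05) under R 4.3.3. Common dispersion was 2.64 in the fit by stage and 2.32 in the fit by stage and position. The procedure was tested on simulated data: without planted differences it called nothing, and with them the false share of calls was above the nominal level. CPM used TMM-scaled sizes, and the plots add a pseudocount of 1. Alternatives were DESeq2 1.42.0, limma 3.58.1 voom with sample weights, other scalings and filters, summed copies, a covariate for detected genes and each library left out. Named genes were the 6 genes in every library, up to 4 genes a list of at least 5 CPM on average, and the 10 genes most like globin. Maxima of other list genes, and Trim58, Hbq1a, Hbb-bh1, Gata1, Klf1, Epor, Hemgn, Rhag, Ermap and Car1, were named after their values were seen. Sums for cells that clear red cells, whose median was 20.8 CPM in metastases and 31.4 in carcinomas, are given here only. Ahsp and Hbb-bh0 matched no ID. Some genes of the lists are not reported here by name.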

Additional observations from a re-analysis of the deposited data

Results flagged for a closer look

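Single libraries stood far from the others of their stage in 15 of 22 groups of values examined, by the gap to the nearest library over the whole range of the group (Dixon's 95% limit). The limit flags about 1 in 20 groups of normally distributed values. These CPM values are skewed or mostly 0, so the share flagged by chance here is not known. A group where only 1 library has counts is flagged whatever the level. The alpha rows hold almost the same counts, so their flags are not separate. Adenoma 36 was highest among 8 adenomas for Hba-a1 at 1497 CPM, Hba-a2 at 1481, Hbb-bs at 1065, Hbb-bt at 425.7 and Alas2 at 41.3. Metastasis 56 was highest among 7 metastases for Hba-a1 at 5781 CPM, Hba-a2 at 5749, Hbb-bs at 5252, Hbb-bt at 2053 and Alas2 at 23.5. Hyperplasia 33 was highest among 5 hyperplasias for Hbb-bs at 370.7 CPM and Hbb-bt at 163.8. Alas2 in hyperplasia 21, at 0.178 CPM, rests on 2 reads. Slc4a1 at 0.554 CPM in carcinoma 37 and 0.601 CPM in metastasis 40 rests on 7 and 3 reads.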

How the results depend on the processing

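No paired analysis was possible because the numbers in the labels are not shared between groups. Counts of the 6 genes past the adjusted threshold were 0 in all 9 comparisons and, except as follows, under every alternative. DESeq2 gave 1 for adenoma minus hyperplasia and 3 for adenoma core minus border, where it called 3.06% and 5% of all genes. Without the filter on low counts the test over 5 stages gave 3, where 15.5% of all genes passed, and leaving out 1 library gave 0 to 2 there. Limma voom turned several log2 differences. For hyperplasia minus normal gland it gave −4.09 for Hba-a1, −4.08 for Hba-a2, −0.45 for Hbb-bs and −1.03 for Hbb-bt. For carcinoma minus adenoma it gave 2.38, 2.37, 3.07, 3.31 and, for Alas2, 1.67. For metastasis minus carcinoma it gave −0.38 for Alas2. For carcinoma minus normal gland it gave −0.79 for Hba-a1 and Hba-a2. For lung border minus lung centre it gave −0.75 for both alpha genes and −0.017 for both beta genes. For adenoma minus hyperplasia, DESeq2 size factors in edgeR gave −0.16 for both alpha genes and DESeq2 gave −0.17. The cause was not tested. Leaving out 1 library turned the sign of these log2 differences. Hyperplasia minus normal gland ran from −0.31 without hyperplasia 33 to 6.78 without normal 30 for Hbb-bs, from −0.72 to 5.11 without the same libraries for Hbb-bt, and from −5.29 without hyperplasia 21 to 2.04 without normal 30 for Alas2. Adenoma minus hyperplasia ran, without adenoma 36 and without hyperplasia 33, from −2.26 to 1.18 for Hba-a1, −2.26 to 1.20 for Hba-a2, −2.75 to 2.495 for Hbb-bs and −2.75 to 3.29 for Hbb-bt. Carcinoma minus adenoma ran, without carcinoma 37 and without adenoma 36, from −1.57 to 1.24 for Hba-a1, −1.56 to 1.26 for Hba-a2, −1.25 to 2.61 for Hbb-bs and −1.09 to 2.72 for Hbb-bt, and for Alas2 from −1.90 without carcinoma 55 to 0.34 without adenoma 36. Carcinoma core minus border ran, without carcinoma 37 and without carcinoma 55, from −2.03 to 0.62 for both alpha genes, −2.58 to 1.07 for Hbb-bs and −2.36 to 1.43 for Hbb-bt. Lung border minus lung centre ran, without metastasis 56 and without metastasis 27, from −0.029 to 2.25 for Hba-a1 and −0.024 to 2.26 for Hba-a2. Counting the reads shared by copies once, an alternative chosen after seeing the data, changed no call. Against TMM, DESeq2 size factors in edgeR moved the median of all genes by −0.41 for carcinoma minus normal gland and by −0.35 for hyperplasia minus normal gland, and by less than 0.1 in the other comparisons.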
